A study of Homo sapiens with 36 samples.

Results

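Glycolysis is described here through 36 genes in 501mel and IGR37 cells: 15 enzymes from hexokinase to pyruvate kinase, 2 lactate dehydrogenases, 2 glucose carriers, 2 lactate carriers, 3 regulatory kinases, 2 oxygen-dependent hydroxylases and 10 other genes known as targets of the hypoxia-inducible factor HIF. They were chosen by symbol from a list of glycolytic enzymes, carriers and HIF targets, and 35 of the 36 were measured in both deposited tables, of 13534 genes in all. CA9 is not analysed here. 501mel and IGR37 are human melanoma lines, and the question was how they respond when stearoyl-CoA desaturase (SCD), the enzyme that makes monounsaturated fatty acids, is inhibited or its mRNA is lowered. Each line had 6 groups of 3 libraries. SCDi cells received the SCD inhibitor A939372 at 1 uM for 48 h, and DMSO cells were their reference. The siSCD_1 and siSCD_2 cells received 1 of 2 siRNAs against SCD at 20 nM for 48 h. The siCTR_1 cells, in the same table as siSCD_1, and the siCTR cells, in the same table as siSCD_2, received control siRNA at the same dose and time. All cells were grown in RPMI-1640 with fetal bovine serum, and no group was labelled as low oxygen or low glucose. Per group there was 1 line at 1 time, and the labels do not say whether the 3 libraries came from separate cultures, so the p-values describe variation among these libraries, which may be technical.

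Glycolysis converts glucose to pyruvate in the cytosol, and lactate dehydrogenase reduces pyruvate to lactate, which leaves the cell through monocarboxylate carriers. HIF is a pair of transcription factor subunits; in normal oxygen the EGLN hydroxylases mark its alpha subunit for degradation, and when oxygen is low HIF raises genes of glucose uptake, glycolysis, lactate export, mitophagy and collagen hydroxylation. In melanoma cells glycolysis is commonly active in normal oxygen too, and several of these genes also respond to other regulators, among them MYC and the stress factor ATF4.

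The HIF dimer binds a short core, ACGTG or GCGTG, in the control regions of its targets. The windows of 5 members are shown because these members carry the main patterns: LDHA, PGK1 and ENO2 were mostly lower after SCD was targeted, HK2 was mostly higher, and SLC2A1 moved in opposite directions in the lines with siSCD_2. Each is the first listed RefSeq window of the gene (GRCh38.p14), from 250 bases before to 50 bases after a start site, written 5′ to 3′ on the gene's strand. Capitals mark every match to the core on either strand, that is ACGTG or GCGTG and, for the other strand, CACGT or CACGC. Matches that overlap, as where ACGTG on one strand is CACGT shifted by 1 base on the other, were counted as 1 stretch.
LDHA (chr11:18394313-18394612, plus strand): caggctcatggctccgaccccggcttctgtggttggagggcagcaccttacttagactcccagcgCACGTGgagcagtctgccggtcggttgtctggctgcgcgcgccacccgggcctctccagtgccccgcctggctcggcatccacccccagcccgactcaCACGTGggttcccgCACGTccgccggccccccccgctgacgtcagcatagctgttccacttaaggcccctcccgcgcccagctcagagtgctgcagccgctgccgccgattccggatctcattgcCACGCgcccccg
PGK1 (chrX:78103998-78104297, plus strand): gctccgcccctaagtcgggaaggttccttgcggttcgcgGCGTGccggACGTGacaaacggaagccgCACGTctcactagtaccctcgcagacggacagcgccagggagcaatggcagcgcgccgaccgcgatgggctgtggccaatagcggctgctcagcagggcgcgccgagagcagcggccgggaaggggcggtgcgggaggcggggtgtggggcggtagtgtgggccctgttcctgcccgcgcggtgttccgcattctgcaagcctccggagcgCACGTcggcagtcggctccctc
ENO2 (chr12:6914330-6914629, plus strand): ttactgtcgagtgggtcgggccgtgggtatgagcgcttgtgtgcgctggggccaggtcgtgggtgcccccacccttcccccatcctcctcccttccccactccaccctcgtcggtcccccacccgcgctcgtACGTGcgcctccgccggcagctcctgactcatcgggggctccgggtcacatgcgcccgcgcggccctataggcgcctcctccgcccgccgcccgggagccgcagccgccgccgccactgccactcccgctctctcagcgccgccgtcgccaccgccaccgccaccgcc
HK2 (chr2:74833877-74834176, plus strand): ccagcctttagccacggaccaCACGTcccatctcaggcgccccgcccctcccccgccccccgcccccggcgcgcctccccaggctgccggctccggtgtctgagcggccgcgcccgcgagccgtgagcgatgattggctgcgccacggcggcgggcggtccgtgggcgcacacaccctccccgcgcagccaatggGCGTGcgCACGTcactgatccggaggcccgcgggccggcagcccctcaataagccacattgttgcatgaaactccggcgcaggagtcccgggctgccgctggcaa
SLC2A1 (chr1:42958819-42959118, minus strand): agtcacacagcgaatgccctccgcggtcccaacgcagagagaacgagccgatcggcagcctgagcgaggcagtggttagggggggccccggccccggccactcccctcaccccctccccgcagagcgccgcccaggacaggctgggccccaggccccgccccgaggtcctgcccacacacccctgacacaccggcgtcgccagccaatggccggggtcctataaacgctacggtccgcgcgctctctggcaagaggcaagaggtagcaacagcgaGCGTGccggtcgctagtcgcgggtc

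The LDHA and PGK1 windows held 4 separate stretches each, the HK2 window 3, and the ENO2 and SLC2A1 windows 1 each. A window was listed for 31 of the 35 measured members. Of these 31 first listed windows, 21 (67.7%) held the core, against 48.4% of all 35116 windows in the table. The ACGTG form alone was in 12 of the 31 (38.7%) and in 21.4% of all windows. The genes that moved down and the genes that moved up were both among those with a match, and a match is a description of letters only.

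Levels are log2 CPM, reads of a gene's 3′ transcript tags scaled to a common library total. Recovered gene reads were 4078450 to 6685898 per library in the first table (SCDi, DMSO, siSCD_2, siCTR) and 2402788 to 7483010 in the second (siSCD_1, siCTR_1). In 501mel the siSCD_1 libraries were shallower (2897808 to 3285909 reads) than the siCTR_1 libraries (4146308 to 5986834 reads). In IGR37 the ranges were 2402788 to 5375599 reads with siSCD_1 and 4880488 to 7483010 with siCTR_1. The limit set by a count of 0, taken as 3 reads, was 0.416 to 0.72 CPM per library in the first table and 0.388 to 1.19 CPM in the second, for counting error only. Changes below are log2 differences ± SE from limma with n = 3 libraries per group, with p-values adjusted by Benjamini-Hochberg over all genes of a table, and a member is said to have risen or fallen at an adjusted p under 0.05. Since these are bulk RNA samples, less RNA per cell and fewer cells with the RNA cannot be told apart.

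All 8 melanocyte lineage markers were found in every library, among them MITF at 8.11 to 9.43 in the first table, while 4 of 5 epithelial markers had no value in either table. Of the fibroblast markers 3 of 7 were in the first table and 1 of 7 in the second, and of the blood and endothelial markers 3 of 8 were in each. The summed CPM of those 3 blood and endothelial markers, of which CD68 had the highest level, was 47.1 to 62.2 with SCDi and 11.01 to 17.5 with DMSO in IGR37, and 83.9 to 90.3 and 51.6 to 65.7 in 501mel. With siSCD_2 it was 4.59 to 7.13 in IGR37 and 23.0 to 30.5 in 501mel, against 14.5 to 17.6 and 42.4 to 80.0 with siCTR. With siSCD_1 it was 10.7 to 25.4 in IGR37 and 17.8 to 24.2 in 501mel, against 13.2 to 16.3 and 26.6 to 27.0 with siCTR_1. PTPRC, CD3E, LYZ and CDH5, and the fibroblast markers COL1A2, COL3A1, PDGFRB and THY1, had no value in either table. The summed fibroblast markers were at 3.11 to 4.94 CPM with SCDi and 13.9 to 16.1 CPM with DMSO in IGR37, and between 1.79 and 19.7 CPM in all other groups. The summed melanocyte markers were lower in each IGR37 treated group than in its control, 3933 to 4186 CPM with SCDi against 5742 to 5898 with DMSO, 4327 to 4452 with siSCD_2 against 7101 to 7126 with siCTR, and 6219 to 6564 with siSCD_1 against 6774 to 7109 with siCTR_1. In 501mel they were at 5733 to 5815 CPM with SCDi against 5585 to 5663 with DMSO, 3635 to 4004 with siSCD_2 against 4228 to 4352 with siCTR, and 3039 to 3097 with siSCD_1 against 4278 to 4465 with siCTR_1. The part of these markers in the results below was not tested.

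SCD mRNA, the target of the siRNAs, was 5.05, 4.95 and 5.09 in 501mel siSCD_2 libraries and 9.23, 9.49 and 9.36 in siCTR libraries. The IGR37 levels were 6.52, 5.32 and 6.09 with siSCD_2 and 10.16, 10.16 and 10.05 with siCTR. With siSCD_1 it was 6.83 to 7.06 in 501mel and 7.33 to 7.49 in IGR37, against 9.75 to 9.81 and 10.04 to 10.13 with siCTR_1. The inhibitor acts on the protein, so the transcript does not check it. With SCDi SCD mRNA rose by 0.63 ± 0.158 in IGR37 (limma adjusted p = 0.00215). In 501mel it was higher by 0.29 ± 0.158 without passing (0.573). In IGR37 the 3 siSCD_2 libraries differed from each other more than those of any other group, with a chi-square per degree of freedom of 10.0 to 28.6 between pairs, against 1.94 to 6.91 in the other groups. The SE from limma is shared by all groups of a table. For siSCD_2 against siCTR in IGR37 the SE and adjusted p may therefore understate this spread. The widest pair was replicate 2 and the unnumbered library. Replicate 2 had the lowest SCD and also lower LDHA, ENO2, HK2 and SLC16A1 than the other 2 libraries. Leaving out any 1 library of that comparison gave -1.08 to -0.74 for LDHA, -2.07 to -1.68 for ENO2, 1.33 to 1.70 for HK2 and 1.03 to 1.46 for SLC16A1. ATF4, a stress factor, was higher with SCDi by 0.69 ± 0.137 in 501mel and by 2.47 ± 0.137 in IGR37, with siSCD_1 by 1.07 and 1.81, and with siSCD_2 by 0.58 and 0.87. MITF, the melanocyte master factor, differed by -0.02 with SCDi in 501mel, where it did not pass, and fell in the other 5 comparisons, by 0.33 to 1.13. The part of ATF4 or MITF in the results below was not tested.

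Of the 15 enzymes of the glycolytic chain 7 to 9 fell and 0 to 2 rose in each comparison but that of the inhibitor in 501mel, while the glucose carriers, the lactate carriers and the other HIF targets were called in either direction. With SCDi in IGR37, 7 members rose and 16 fell of 35, against 20.9% and 23.1% of all genes (44.1% in either direction). With siSCD_1, 8 rose and 16 fell in 501mel (20.9% and 22% of all genes, 43% in either), and 4 rose and 9 fell in IGR37 (16.7% and 19.4%, 36.1% in either). With siSCD_2, 4 rose and 17 fell in 501mel (18.3% and 19.5%, 37.9% in either), and 11 rose and 9 fell in IGR37 (23.2% and 22.7%, 45.9% in either). For siSCD_2 in IGR37 the split was 10 up and 14 down after quantile normalization. When only the groups compared were fitted, the falls of the enzymes ENO1, PGAM1, ALDOA and PFKL in that comparison did not pass. With SCDi in 501mel limma called 0 members (0.232% of all genes higher, 0.0599% lower, 0.292% in either direction), limma voom on recovered reads also called 0, and before adjustment 4 members were above and 1 was below DMSO at p under 0.05. Across the 6 comparisons 14 members were called lower only, 5 higher only, 12 in each direction at least 1 time, and 4 never (HK1, PFKM, EGLN3 and P4HA2).

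**Figure D1:**
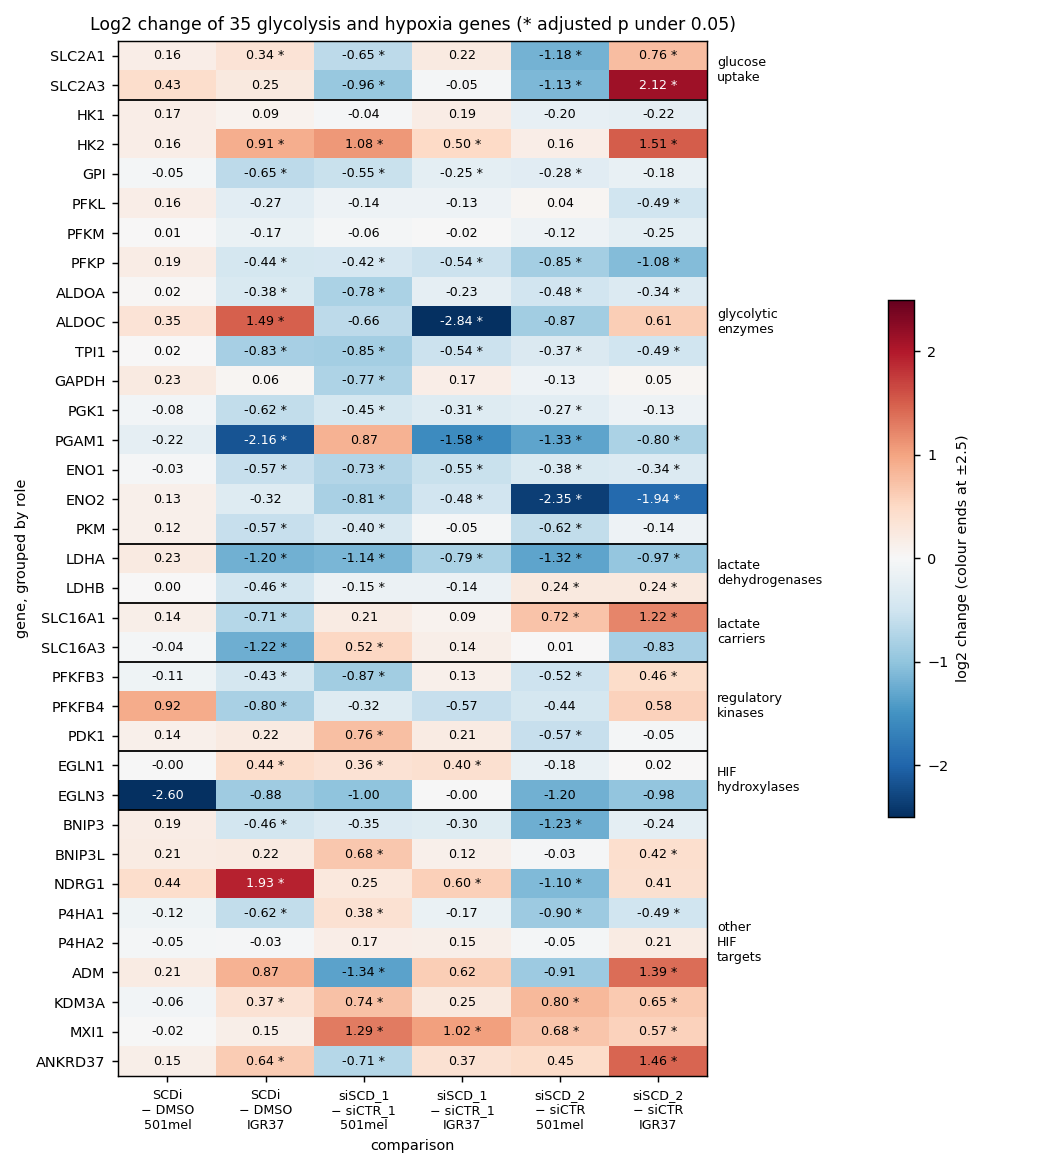
Log2 change of the 35 measured members (rows, grouped by role) in the 6 comparisons of a treated group with its control (columns), 3 libraries per group; a star marks an adjusted p under 0.05 and the colour ends at ±2.5. LDHA, PFKP, TPI1 and ENO1 are starred and blue in 5 of the 6 columns, and the SCDi column of 501mel has no star; the darkest cells of ALDOC and EGLN3 rest on few reads.

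The lactate dehydrogenase LDHA (ENSG00000134333.13, hg38 chr11:18394388-18408425, plus strand), whose subunit favours lactate formation, fell in 5 of the 6 comparisons. With SCDi in IGR37 its level was 7.29, 7.12 and 7.14, against 8.40, 8.34 and 8.41 with DMSO (-1.20 ± 0.123, adjusted p = 1.45e-08), a ratio of 0.435. With siSCD_2 in 501mel it was 6.71, 6.75 and 6.52, against 7.81, 8.07 and 8.07 with siCTR (-1.32 ± 0.123, adjusted p = 4.24e-09). In each case every treated library lay more than 1 log2 unit below the lowest control library. With siSCD_1 in 501mel it was 6.92, 6.98 and 6.99, against 8.11, 8.16 and 8.06 with siCTR_1 (-1.14 ± 0.0777, adjusted p = 1.62e-08). In IGR37 the fall was -0.79 ± 0.0777 with siSCD_1 (7.77, 7.91 and 7.63, against 8.54, 8.49 and 8.67) and -0.97 ± 0.123 with siSCD_2 (7.45, 6.79 and 7.47, against 8.09, 8.31 and 8.20). With SCDi in 501mel LDHA was 8.36, 8.37 and 8.43, against 8.24, 8.03 and 8.18 with DMSO, a difference of 0.23 with a 95% interval of -0.02 to 0.49 and an adjusted p of 0.563. There the 3 inhibitor libraries lay above the 3 DMSO libraries, so this comparison is opposite in sign to the others and did not pass. LDHB, whose subunit favours the reverse reaction, followed LDHA only in part. It fell as LDHA did with SCDi in IGR37 (-0.46 ± 0.0648, adjusted p = 2.11e-06). With siSCD_1 in IGR37 it was at -0.14 without passing. In contrast to LDHA it rose by 0.24 ± 0.0648 with siSCD_2 in each line. Its rises with siSCD_2 did not pass after quantile normalization (0.12 in 501mel and 0.08 in IGR37), nor in IGR37 when only the groups compared were fitted (adjusted p = 0.0886). Its small fall with siSCD_1 in 501mel (-0.15 ± 0.0574) missed the threshold in each fit that left out 1 of the 6 libraries (-0.17 to -0.14) and turned to 0.157 after quantile normalization.

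Of the 15 glycolytic enzymes, 8 fell and 2 rose with SCDi in IGR37, 9 fell and 1 rose with siSCD_1 in 501mel, 8 fell and 1 rose with siSCD_1 in IGR37, 9 fell and 0 rose with siSCD_2 in 501mel, and 7 fell and 1 rose with siSCD_2 in IGR37. Of the 7 falls with siSCD_2 in IGR37, those of ENO1, PGAM1, ALDOA and PFKL did not pass when only the groups compared were fitted. Their adjusted p in that limma fit was 0.118, 0.0556, 0.0968 and 0.137. At the shares of all genes given above, 15 genes would hold 2.91 to 3.47 lower and 2.5 to 3.48 higher calls in these 5 comparisons. The median changes of the 15 enzymes in these 5 comparisons were -0.38, -0.45, -0.25, -0.37 and -0.25. The medians of all genes were between -0.01 and 0.01. With SCDi in 501mel the median was 0.12, with 0 called, and the median of all genes was 0.00. At the level of single enzymes, 11 were called lower only, HK2 higher only, ALDOC in both directions, and HK1 and PFKM never. The steps differed in size, which is described next from the top of the chain.

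**Figure D2:**
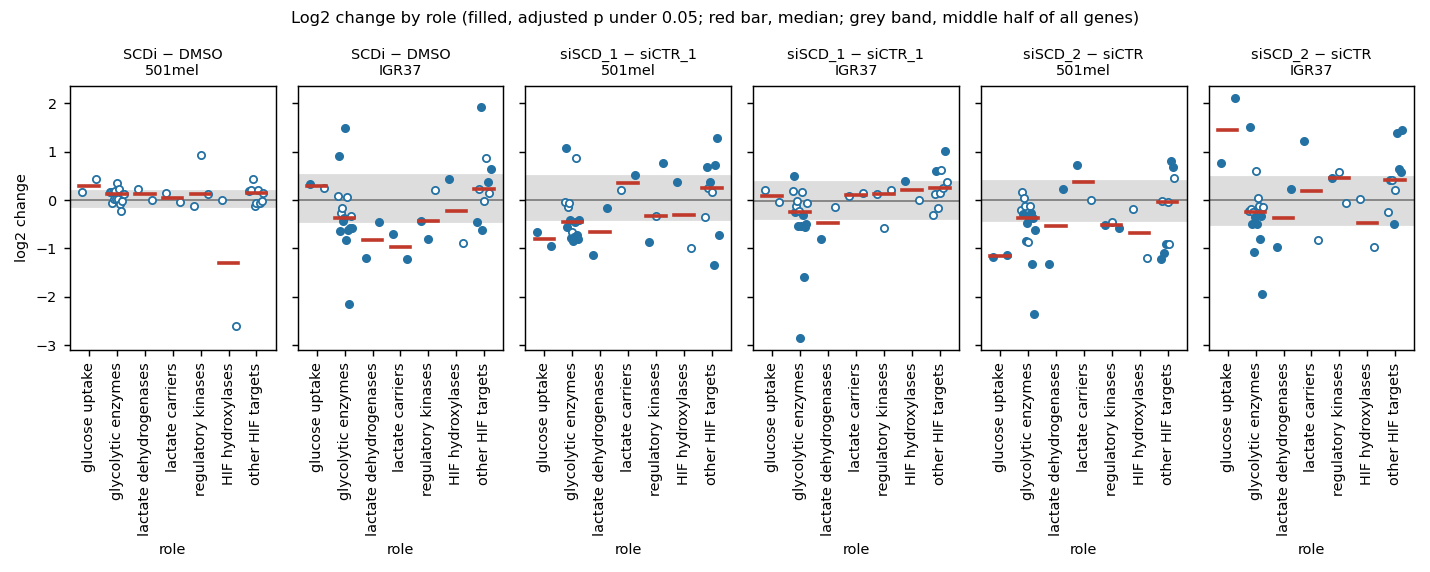
Log2 change of each member (points, filled at an adjusted p under 0.05) by role in the 6 comparisons, with the median of the role (red bar) and the middle 50% of all genes (grey band). The enzyme medians lie between -0.45 and -0.25 in the last 5 panels and at 0.12 in the first.

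Hexokinases phosphorylate glucose and trap it in the cell. HK2 (ENSG00000159399.9, chr2:74833981-74893359), the inducible form, rose in 4 comparisons. With siSCD_2 in IGR37 its level was 7.62, 7.19 and 7.95, against 6.14, 6.06 and 6.05 with siCTR (1.51 ± 0.123, adjusted p = 3.19e-10), 2.84 times the control. With SCDi in IGR37 it was 7.64, 7.47 and 7.38, against 6.56, 6.70 and 6.50 with DMSO (0.91 ± 0.123, adjusted p = 1.25e-06). All treated libraries lay above all controls in both cases. With siSCD_1 in 501mel it was 7.14, 7.31 and 7.45, against 6.05, 6.37 and 6.21 with siCTR_1 (1.08 ± 0.141, adjusted p = 1.51e-05). With siSCD_1 in IGR37 the rise was smaller (6.94, 6.46 and 7.17, against 6.41, 6.28 and 6.37; 0.50 ± 0.141), and without siSCD_1 replicate 3 it was 0.35 with an adjusted p of 0.0544, and when only the groups compared were fitted the adjusted p was 0.0661. In 501mel HK2 differed by 0.16 with SCDi and by 0.16 with siSCD_2 and passed in neither. The siCTR level of HK2 was itself below the DMSO level in both lines. In 501mel it was 6.48, 6.75 and 6.79 with siCTR, against 7.47, 7.44 and 7.56 with DMSO. In IGR37 it was 6.14, 6.06 and 6.05, against 6.56, 6.70 and 6.50. The part of the control siRNA in the siSCD_2 values of HK2 was not tested. HK1, the constitutive form, changed by -0.22 to 0.19 and was called in none of the 6.

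Phosphofructokinase commits the sugar to glycolysis, and of its 3 subunits only the platelet form PFKP passed in more than 1 comparison. PFKP was 5.34, 5.24 and 5.50 with siSCD_2 in 501mel, against 6.22, 6.18 and 6.23 with siCTR (-0.85 ± 0.087, adjusted p = 2.34e-08). The IGR37 levels were 5.71, 5.78 and 5.67, against 6.76, 6.88 and 6.75 (-1.08 ± 0.087, adjusted p = 2.44e-10). The groups did not overlap in either line. With SCDi in IGR37 it fell by 0.44, and with siSCD_1 by 0.42 in 501mel and by 0.54 in IGR37. The muscle form PFKM ranged from -0.25 to 0.01 over the 6 comparisons with 0 calls. The liver form PFKL fell with siSCD_2 in IGR37 (-0.49 ± 0.139), where the groups overlapped (6.52, 6.98 and 6.11, against 6.82, 7.17 and 7.08), and without the siSCD_2 library at 6.11 the value was -0.28 with an adjusted p of 0.0744.

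In the middle of the chain the falls were moderate. The isomerase GPI, which turns glucose-6-phosphate into fructose-6-phosphate, fell in 4 comparisons, most with SCDi in IGR37 (8.66, 8.64 and 8.69, against 9.31, 9.32 and 9.31 with DMSO; -0.65 ± 0.0868). Its calls were less firm with siSCD_1 in IGR37 (-0.21 and an adjusted p of 0.0753 without siCTR_1 replicate 2, -0.21 and 0.0672 without siSCD_1 replicate 1) and with siSCD_2 in 501mel (-0.24 and 0.0602 without siCTR replicate 1, -0.24 and 0.0607 without siSCD_2 replicate 2). The aldolase ALDOA, which splits the 6-carbon sugar, fell in 4, from -0.34 with siSCD_2 in IGR37 to -0.78 with siSCD_1 in 501mel. Without DMSO replicate 3 its fall with SCDi in IGR37 was -0.32 (adjusted p = 0.0523), and without the unnumbered siSCD_2 library its fall in IGR37 was -0.21 (adjusted p = 0.142). Triose phosphate isomerase TPI1 fell in 5. With SCDi in IGR37 it was 8.72, 8.66 and 8.79, against 9.53, 9.52 and 9.60 with DMSO (-0.83 ± 0.0762, adjusted p = 2.5e-09). With siSCD_1 in 501mel it was 8.23, 8.35 and 8.24, against 9.24, 9.04 and 9.07 with siCTR_1 (-0.85 ± 0.0768). GAPDH, often used as a reference transcript, fell with siSCD_1 in 501mel (10.46, 10.23 and 10.37, against 11.35, 10.94 and 11.07 with siCTR_1; -0.77 ± 0.125), and was within -0.13 to 0.23 elsewhere.

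The lower chain makes ATP and pyruvate. The phosphoglycerate kinase PGK1 fell in 4 comparisons, most with SCDi in IGR37 (9.13, 9.13 and 9.04, against 9.69, 9.79 and 9.68 with DMSO; -0.62 ± 0.0641). ENO1, the ubiquitous enolase, fell in 5, from -0.34 with siSCD_2 in IGR37 to -0.73 with siSCD_1 in 501mel. The siSCD_2 value in IGR37 was -0.22 without the unnumbered siSCD_2 library (adjusted p = 0.0493) and -0.62 after quantile normalization, and it did not pass when only the groups compared were fitted (adjusted p = 0.118). In that fit the falls of ALDOA and PFKL with siSCD_2 in IGR37 did not pass either (adjusted p = 0.0968 and 0.137). The neuronal enolase ENO2 (ENSG00000111674.8, chr12:6913745-6923698) had larger falls with siSCD_2. It was 4.19, 4.0 and 4.11 in 501mel, against 6.20, 6.59 and 6.57 with siCTR (-2.35 ± 0.147, adjusted p = 3.42e-12), a ratio of 0.196. The IGR37 levels were 4.70, 3.92 and 4.70, against 6.19, 6.57 and 6.37 (-1.94 ± 0.147, adjusted p = 8.44e-11). Every treated library was more than 1 log2 unit below the lowest control in each line. With siSCD_1 the falls were -0.81 ± 0.121 in 501mel and -0.48 ± 0.121 in IGR37. With SCDi ENO2 did not pass in IGR37 (-0.32 ± 0.147, adjusted p = 0.0778), and the effect of siSCD_2 minus that of SCDi was -2.48 ± 0.208 in 501mel and -1.62 ± 0.208 in IGR37 (adjusted p = 2.57e-09 and 8.69e-07). Pyruvate kinase PKM, which makes pyruvate, fell in 3 comparisons, by 0.57 with SCDi in IGR37, by 0.40 with siSCD_1 in 501mel (-0.16 and an adjusted p of 0.101 after quantile normalization) and by 0.62 with siSCD_2 in 501mel.

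PGAM1 and ALDOC had wide changes on few reads. The mutase PGAM1 was 1.75, 2.52 and 1.87 with SCDi in IGR37, against 4.15, 4.50 and 3.96 with DMSO (-2.16 ± 0.313, adjusted p = 3.51e-06), which rests on 16 to 31 reads per SCDi library. It fell with siSCD_1 in IGR37 (-1.58 ± 0.37) and with siSCD_2 in 501mel (-1.33 ± 0.313). With siSCD_1 in 501mel it was 3.73, 3.18 and 3.30, against 2.00, 2.53 and 3.08 with siCTR_1, with no overlap, a difference of 0.87 ± 0.37 that did not pass (adjusted p = 0.0698). Its fall with siSCD_2 in IGR37 (-0.80 ± 0.313) did not pass without siCTR replicate 1 or 3 or siSCD_2 replicate 1 or 2 (-0.83 to -0.61, adjusted p of 0.0512 to 0.166), or when only the groups compared were fitted (0.0556). The brain aldolase ALDOC had 412 reads over the 3 DMSO libraries of 501mel and 3 over those of IGR37. Its rise with SCDi in IGR37 rests on 7 reads over the SCDi libraries against 3 with DMSO, and without DMSO replicate 2 it was 0.56 (adjusted p = 0.424), without SCDi replicate 2 1.32 (0.128) and without SCDi replicate 3 1.22 (0.156). Its fall with siSCD_1 in IGR37 rests on 0 reads against 7 with siCTR_1, at least 1.44-fold lower at a floor of 3 reads over the group, and did not pass with a pseudocount of 1 or with voom (adjusted p = 0.153 and 0.159). Pseudogene copies with a name derived from the gene's are annotated in GENCODE 29 for 15 members, 62 for GAPDH, 39 for BNIP3, 13 for PGAM1 and 6 for LDHA, and no such copy has a row in the tables. How reads that match gene and copy were counted is not given in the sources used here, so these levels are uncertain.

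**Figure D3:**
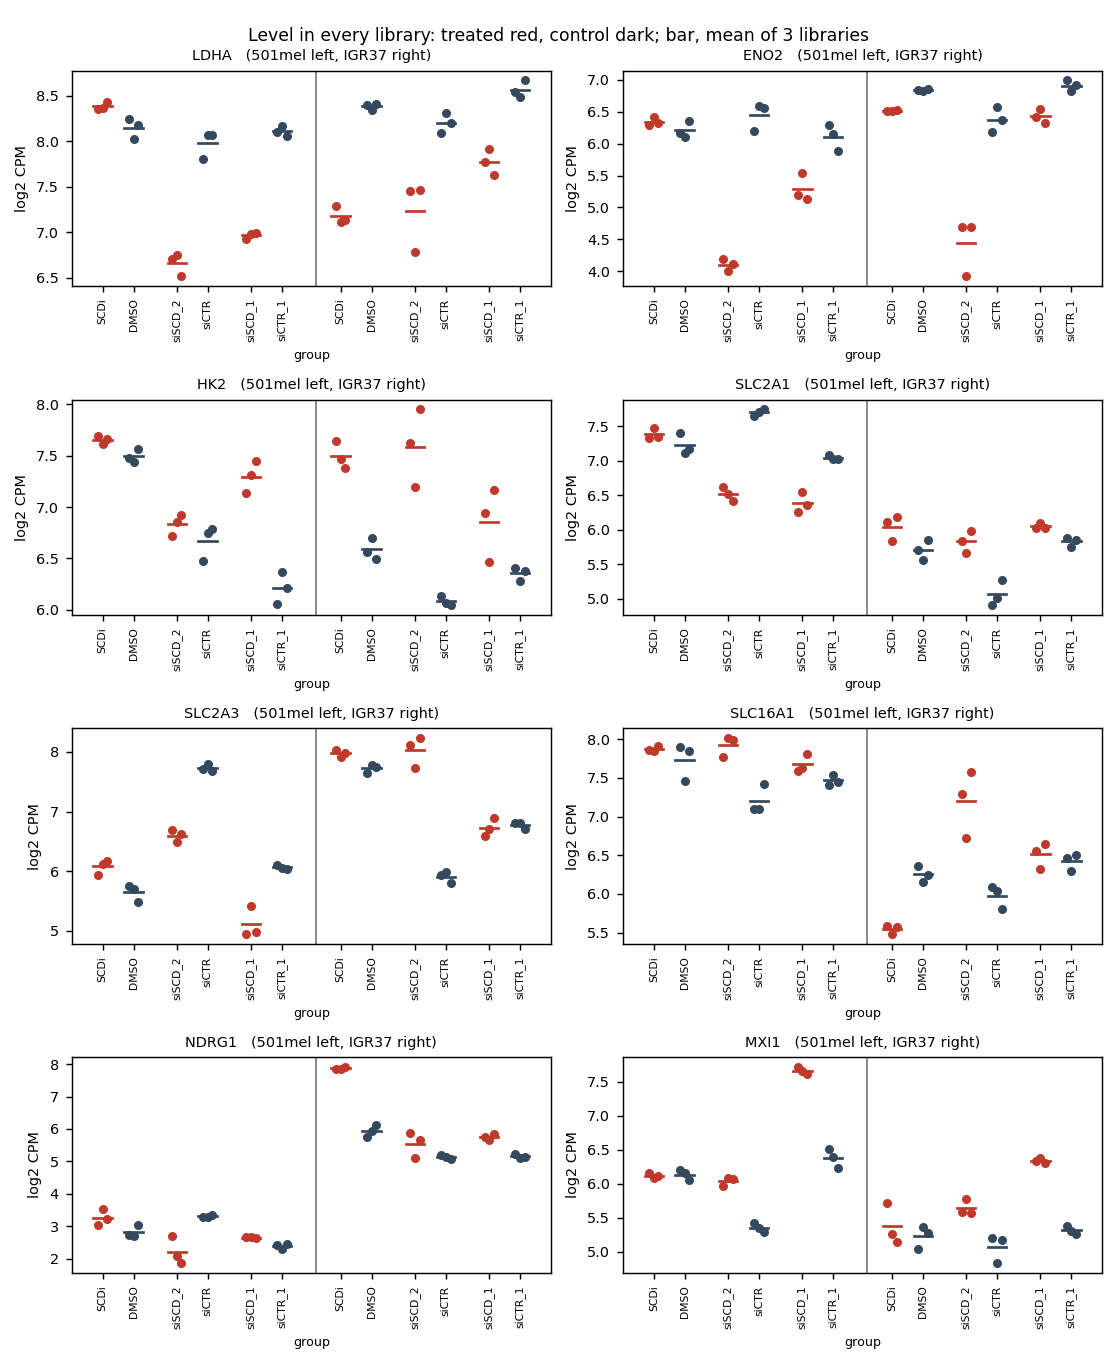
Log2 CPM in each library (points) and the mean of 3 libraries (bars) for 8 members, with 501mel on the left and IGR37 on the right of each panel and each treated group (red) left of its control (dark). LDHA and ENO2 are lower with siSCD_2 in each line, while SLC2A1 and SLC2A3 are lower with siSCD_2 in 501mel and higher in IGR37; siSCD_1 and siCTR_1 come from a table normalized separately.

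The glucose carriers GLUT1 (SLC2A1) and GLUT3 (SLC2A3) went in opposite directions in the lines with siSCD_2. SLC2A1 (ENSG00000117394.21, chr1:42925375-42959176, minus strand) was 6.62, 6.52 and 6.42 with siSCD_2 in 501mel, against 7.65, 7.70 and 7.74 with siCTR (-1.18 ± 0.111, adjusted p = 5.27e-09). In IGR37 it was 5.83, 5.67 and 5.99, against 4.91, 5.02 and 5.28 (0.76 ± 0.111, adjusted p = 3.71e-06). The difference between the lines was 1.94 ± 0.157 (adjusted p = 2.23e-09), and no treated library overlapped a control in either line. SLC2A3 (ENSG00000059804.15, chr12:7919230-7936275, minus strand) was 6.68, 6.49 and 6.62 with siSCD_2 in 501mel, against 7.71, 7.80 and 7.68 with siCTR (-1.13 ± 0.105, adjusted p = 3.87e-09). In IGR37 it was 8.12, 7.73 and 8.23, against 5.93, 5.99 and 5.80 (2.12 ± 0.105, adjusted p = 5.8e-14), 4.35 times the control. The line difference of this effect was 3.25 ± 0.148 (adjusted p = 9.54e-14), the widest of any member.

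The siCTR level of SLC2A3 was itself far from the DMSO level, in opposite directions in the lines. In 501mel it was 7.71, 7.80 and 7.68 with siCTR and 5.76, 5.70 and 5.48 with DMSO (2.08 ± 0.105, adjusted p = 9.79e-13). In IGR37 it was 5.93, 5.99 and 5.80 with siCTR and 7.64, 7.79 and 7.75 with DMSO (-1.82 ± 0.105, adjusted p = 1.13e-11). These comparisons were added after the levels were seen, share the siCTR libraries with the siSCD_2 comparisons, and siCTR and DMSO cells differ in transfection as well as in the agent, so the part of the control siRNA in the siSCD_2 difference was not tested. With siSCD_2 SLC2A3 stood between the siCTR and DMSO levels in 501mel (6.49 to 6.68) and overlapped the DMSO range in IGR37 (7.73 to 8.23, against 7.64 to 7.79). Other members that set the lines apart, among them ALDOC, ADM, SLC16A3, NDRG1 and P4HA2, kept the same order of the lines under siCTR as under DMSO. For SLC2A1 the siCTR groups differed from DMSO by 0.47 ± 0.111 in 501mel and -0.64 ± 0.111 in IGR37. In all, 4 members were higher and 5 lower with siCTR than with DMSO in 501mel (4.74% and 6.57% of all genes, 11.3% in either), and 0 were higher and 13 lower in IGR37 (6.46% and 8.99%, 15.5% in either), with 0 higher also at an unadjusted p under 0.05 in limma.

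With siSCD_1, the other siRNA, both carriers fell in 501mel and neither passed in IGR37. SLC2A1 was 6.26, 6.55 and 6.36 in 501mel siSCD_1 libraries, against 7.08, 7.03 and 7.02 with siCTR_1 (-0.65 ± 0.0859, adjusted p = 1.64e-05). SLC2A3 was 4.94, 5.42 and 4.97, against 6.10, 6.06 and 6.04 (-0.96 ± 0.116, adjusted p = 7.48e-06). In IGR37 SLC2A3 was 6.58, 6.71 and 6.88, against 6.80, 6.80 and 6.71, a difference of -0.05 (adjusted p = 0.801), and SLC2A1 was 6.02, 6.10 and 6.03, against 5.88, 5.76 and 5.86, a difference of 0.22 (adjusted p = 0.0571). The line differences of the siSCD_1 effect were 0.87 ± 0.121 for SLC2A1 and 0.91 ± 0.164 for SLC2A3 (adjusted p = 0.000236 and 0.00143). With SCDi SLC2A1 rose in IGR37 (6.12, 5.84 and 6.18, against 5.71, 5.56 and 5.85; 0.34 ± 0.111, adjusted p = 0.0152), with overlapping groups. This call did not hold without DMSO replicate 2 (0.27, adjusted p = 0.0881), without SCDi replicate 1 (0.30, 0.061) or without SCDi replicate 3 (0.27, 0.0857). SLC2A3 was higher by 0.43 ± 0.105 with SCDi in 501mel (5.94, 6.12 and 6.18, against 5.76, 5.70 and 5.48), where the groups did not overlap but the adjusted p was 0.0781, the lowest of any member in that comparison.

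The lactate carriers also differed by treatment. MCT1 (SLC16A1), which carries lactate and pyruvate in either direction, rose with siSCD_2 in both lines and fell with SCDi in IGR37. With siSCD_2 in IGR37 it was 7.29, 6.73 and 7.58, against 6.09, 6.03 and 5.81 with siCTR (1.22 ± 0.146, adjusted p = 2.08e-07), and in 501mel it was 7.77, 8.01 and 7.99, against 7.09, 7.10 and 7.41 (0.72 ± 0.146). With SCDi in IGR37 it was 5.58, 5.48 and 5.57, against 6.36, 6.15 and 6.24 with DMSO (-0.71 ± 0.146, adjusted p = 0.000307). The effects of siSCD_2 and SCDi in IGR37 differed by 1.93 ± 0.207 (adjusted p = 5.16e-08). With siCTR over DMSO SLC16A1 differed by -0.53 in 501mel, where it fell, and by -0.28 in IGR37, where it did not pass. The part of the control siRNA in the siSCD_2 values of SLC16A1 was not tested. MCT4 (SLC16A3), the lactate exporter of glycolytic cells, was 3.88, 3.80 and 3.68 with SCDi in IGR37, against 5.06, 4.98 and 5.0 with DMSO (-1.22 ± 0.405, adjusted p = 0.016). With siSCD_2 in IGR37 it was lower in every library (3.78, 4.13 and 3.72, against 4.68, 4.79 and 4.65) without passing (-0.83 ± 0.405, adjusted p = 0.0983). Its SE is shared with 501mel, where the 4 groups of the first table had 15 or 16 reads each over 3 libraries. Its rise with siSCD_1 in 501mel (0.52 ± 0.202, adjusted p = 0.0496) missed the threshold without siCTR_1 replicate 1, 2 or 3 or siSCD_1 replicate 1 or 3 (0.39 to 0.54, adjusted p of 0.0777 to 0.182).

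The regulatory kinases set the pace at 2 points: PFKFB3 and PFKFB4 make the activator of phosphofructokinase, and PDK1 blocks pyruvate dehydrogenase. PFKFB3 fell with SCDi in IGR37 (-0.43 ± 0.0929) and with siSCD_2 in 501mel (-0.52 ± 0.0929). With siSCD_1 in 501mel it was 5.41, 5.61 and 5.46, against 6.40, 6.40 and 6.30 (-0.87 ± 0.0837, adjusted p = 6.61e-07). It rose with siSCD_2 in IGR37 (6.87, 6.75 and 6.83, against 6.26, 6.35 and 6.45; 0.46 ± 0.0929). PFKFB4 was 4.16, 4.15 and 4.09 with SCDi in IGR37, against 5.15, 4.97 and 4.70 (-0.80 ± 0.264, adjusted p = 0.0153), and without DMSO replicate 1 it was -0.70 (adjusted p = 0.0689). In 501mel it was 3.31, 3.76 and 2.63 with SCDi, against 2.07, 2.53 and 2.34 with DMSO, with no overlap but an adjusted p of 0.176. The difference of these effects between the lines was -1.73 ± 0.374 (adjusted p = 0.00102). PDK1 fell with siSCD_2 in 501mel (-0.57 ± 0.138) and rose with siSCD_1 in 501mel (5.24, 5.44 and 5.31, against 4.68, 4.58 and 4.45; 0.76 ± 0.12, adjusted p = 9.87e-05). The siRNAs thus gave PDK1 opposite directions in the same line, in tables normalized separately and not tested against each other.

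The other HIF targets were called in either direction. Of the 9 measured, 3 rose and 2 fell with SCDi in IGR37, 4 rose and 2 fell with siSCD_1 in 501mel, 2 rose and 0 fell with siSCD_1 in IGR37, 2 rose and 3 fell with siSCD_2 in 501mel, and 5 rose and 1 fell with siSCD_2 in IGR37. At the shares of all genes, 9 genes would hold 1.5 to 2.09 higher and 1.75 to 2.08 lower calls, so most of these counts lie near the background. Their medians were 0.22, 0.25, 0.25, -0.05 and 0.42. BNIP3 alone was called lower only, and BNIP3L, KDM3A and MXI1 were called higher only. The largest rise was of NDRG1 (ENSG00000104419.14, minus strand of chromosome 8, 133237171 to 133302022), a stress- and differentiation-linked gene, with SCDi in IGR37. It was 7.86, 7.84 and 7.91, against 5.75, 5.94 and 6.13 with DMSO (1.93 ± 0.188, adjusted p = 6.3e-09), 3.81 times the control. NDRG1 rose by 0.60 ± 0.139 with siSCD_1 in IGR37 and fell with siSCD_2 in 501mel (2.70, 2.08 and 1.88, against 3.28, 3.30 and 3.36; -1.10 ± 0.188, adjusted p = 4.75e-05). In 501mel its reads were few, 75 over the siSCD_2 libraries and 153 over the siCTR libraries.

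MXI1, an antagonist of MYC, rose with each siRNA in each line. With siSCD_1 it was 7.72, 7.67 and 7.62 in 501mel, against 6.51, 6.39 and 6.23 with siCTR_1 (1.29 ± 0.0836, adjusted p = 9.39e-09). In IGR37 it was 6.34, 6.38 and 6.31, against 5.38, 5.32 and 5.26 (1.02 ± 0.0836, adjusted p = 1.57e-07). Treated libraries stood about 1 log2 unit above controls in both lines. With siSCD_2 the rises were 0.68 ± 0.124 in 501mel and 0.57 ± 0.124 in IGR37, and with SCDi MXI1 was called in neither line (-0.02 and 0.15). KDM3A, a histone demethylase, rose with siSCD_2 in both lines (0.80 ± 0.108 and 0.65 ± 0.108), with siSCD_1 in 501mel (0.74 ± 0.132) and with SCDi in IGR37 (0.37 ± 0.108). ANKRD37, a small ankyrin repeat protein, rose with siSCD_2 in IGR37 (4.80, 4.44 and 5.20, against 3.53, 3.02 and 3.5; 1.46 ± 0.195, adjusted p = 1.15e-06) and with SCDi in IGR37 (0.64 ± 0.195), and fell with siSCD_1 in 501mel (3.31, 2.95 and 2.83, against 3.79, 3.83 and 3.61; -0.71 ± 0.193).

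The mitophagy receptors BNIP3 and BNIP3L differed from each other. BNIP3 was 5.02, 5.02 and 5.15 with siSCD_2 in 501mel, against 6.40, 6.42 and 6.05 with siCTR (-1.23 ± 0.1, adjusted p = 4.73e-10), and it fell with SCDi in IGR37 (-0.46 ± 0.1). BNIP3L rose with siSCD_1 in 501mel (5.37, 5.49 and 5.35, against 4.74, 4.84 and 4.59; 0.68 ± 0.0957) and with siSCD_2 in IGR37 (0.42 ± 0.11). P4HA1, a collagen prolyl hydroxylase subunit, fell in 3 comparisons, most with siSCD_2 in 501mel (5.65, 5.66 and 5.51, against 6.54, 6.45 and 6.55; -0.90 ± 0.093), and rose by 0.38 ± 0.0869 with siSCD_1 in 501mel. P4HA2, its relative, ranged from -0.05 to 0.21 with 0 calls. The vasodilator peptide gene ADM fell with siSCD_1 in 501mel (3.27, 2.31 and 2.70, against 4.19, 4.24 and 3.87; -1.34 ± 0.342). In IGR37 ADM had few reads, 48 over the siSCD_2 libraries and 23 over the siCTR libraries, its groups overlapped, and its rise (1.39 ± 0.438) did not pass without siCTR replicate 2 (1.06, adjusted p = 0.0802) or siSCD_2 replicate 1 (1.00, 0.0915), or when only the groups compared were fitted (0.122). Of the HIF hydroxylases, EGLN1 rose with SCDi in IGR37 (5.89, 5.93 and 5.87, against 5.55, 5.42 and 5.40; 0.44 ± 0.138, adjusted p = 0.0115). Its rises with siSCD_1, 0.36 ± 0.136 in 501mel and 0.40 ± 0.136 in IGR37, ended in 5 and 4 of the 6 fits that left out 1 library (0.25 to 0.40 in 501mel and 0.26 to 0.42 in IGR37, adjusted p of up to 0.192 and 0.15). In 501mel these were the fits without siCTR_1 replicate 2 or 3 or any siSCD_1 replicate, and in IGR37 those without any siCTR_1 replicate or siSCD_1 replicate 3. EGLN3 had 1 read over the SCDi libraries and 8 over the DMSO libraries of 501mel, and it was called in no comparison of a treated group with its control.

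The lines differed in these genes before SCD was targeted. IGR37 was higher in 20 members and lower in 8 than 501mel under DMSO (31.1% and 29.7% of all genes, 60.8% in either), higher in 14 and lower in 10 under siCTR (32.1% and 30.4%, 62.6% in either), and higher in 23 and lower in 6 under siCTR_1 (31.1% and 29.2%, 60.4% in either). NDRG1 was higher in IGR37 by 3.11 ± 0.188 under DMSO, by 1.83 ± 0.188 under siCTR and by 2.76 ± 0.139 under siCTR_1. P4HA2 was higher by 3.07 ± 0.133, 2.12 ± 0.133 and 2.36 ± 0.12. SLC16A3 was higher by 5.12 ± 0.405, 4.85 ± 0.405 and 1.72 ± 0.202. In 501mel it was -0.82 to 0.38 with DMSO and 3.11 to 3.19 with siCTR_1, levels from tables normalized separately. The reads of SLC16A3 differed too, with 48, 54 and 35 in the 501mel siCTR_1 libraries against the few with DMSO given above. The cause of this gap was not tested. ADM was lower in IGR37 by 5.20, 5.14 and 3.43 log2 units, SLC16A1 by 1.49, 1.23 and 1.04, and SLC2A1 by 1.52, 2.63 and 1.21. SLC2A3 changed sign with the control: it was higher in IGR37 by 2.08 ± 0.105 under DMSO and by 0.71 ± 0.116 under siCTR_1, and lower by 1.82 ± 0.105 under siCTR (adjusted p = 1.14e-14, 7.16e-05 and 1.33e-13). The difference of siCTR over DMSO between the lines was -3.91 ± 0.148 for SLC2A3 (adjusted p = 1.16e-15); of the members 1 had a higher and 11 a lower such difference (9.01% and 9.79% of all genes, 18.8% in either). LDHA did not pass under DMSO (0.23) or siCTR (0.22) and was higher in IGR37 by 0.46 ± 0.0777 under siCTR_1.

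**Figure D4:**
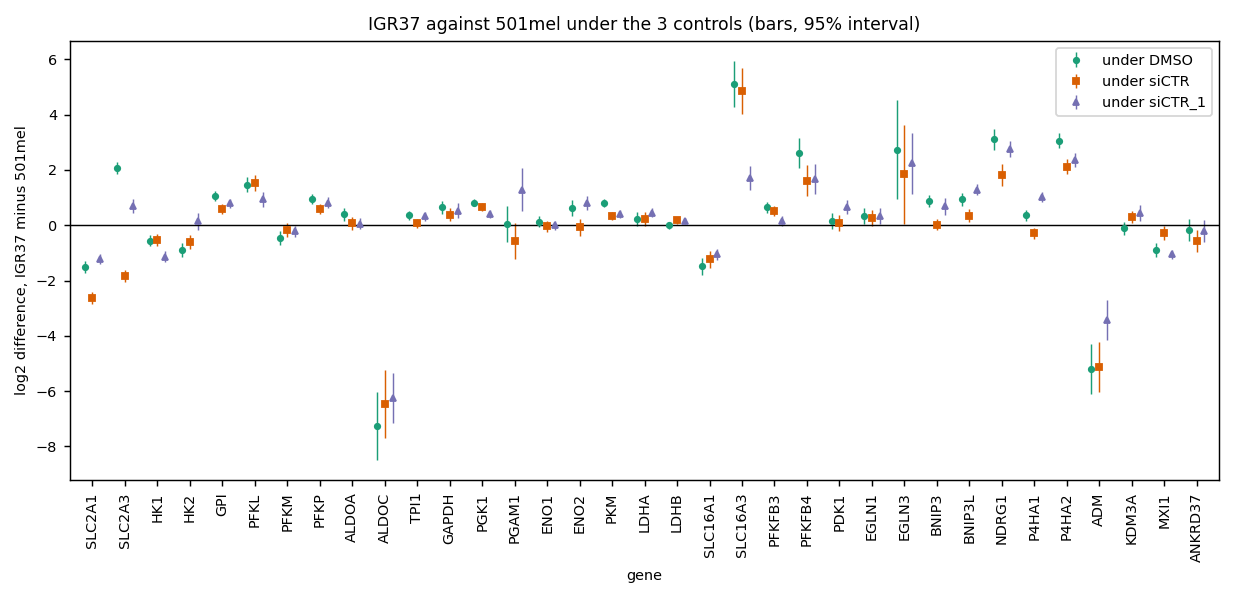
Log2 difference IGR37 minus 501mel of each member under DMSO (circles), siCTR (squares) and siCTR_1 (triangles), with 95% intervals. SLC2A3 lies at 2.08, -1.82 and 0.71, while ALDOC and ADM are low and NDRG1 and P4HA2 high in IGR37 under all 3 controls.

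Whether a treatment acted differently in the lines was tested as the difference of effects, IGR37 minus 501mel. Effects keep their sign, so a lower effect can be a larger fall and a higher effect a smaller fall. For SCDi 13 members had a lower and 3 a higher effect in IGR37 (15.3% and 12.3% of all genes, 27.6% in either), led by PGAM1 (-1.94 ± 0.443), PFKFB4 (-1.73 ± 0.374) and LDHA (-1.43 ± 0.174) on the lower side and NDRG1 (1.49 ± 0.266) on the higher. Of the 15 enzymes 7 were lower and 1, HK2, was higher (0.74 ± 0.174). For siSCD_2 11 members had a higher effect in IGR37 and 0 a lower one (11.6% and 9.47% of all genes, 21.1% in either), with 1 lower in limma at an unadjusted p under 0.05, and 2 of the 15 enzymes were among the 11, HK2 (1.34 ± 0.174) and PKM (0.49 ± 0.102). The same siCTR libraries enter the difference of siCTR over DMSO between the lines, where 1 member was higher and 11 were lower. The part of the control siRNA in the siSCD_2 line differences was not tested. For LDHA the siSCD_2 effect differed by 0.36 between the lines, with an adjusted p of 0.154. For siSCD_1 9 members had a higher and 5 a lower effect in IGR37 (10% and 10.3%, 20.3% in either), among them LDHA (0.35 ± 0.11) and PFKFB3 (1.01 ± 0.118) on the higher side and P4HA1 (-0.55 ± 0.123) on the lower.

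The effect of siSCD_2 was also set against that of SCDi within a line, as signed values and each against its own control. In 501mel 14 members had a lower and 3 a higher effect with siSCD_2 (11.5% and 9.51% of all genes, 21% in either), led by ENO2, SLC2A3 (-1.57 ± 0.148), LDHA (-1.55 ± 0.174) and NDRG1 (-1.54 ± 0.266). In IGR37 13 had a higher and 3 a lower effect (20.2% and 18.7%, 38.8% in either; 9 and 5 after quantile normalization), with SLC16A1 and SLC2A3 (1.87 ± 0.148) on the higher side and ENO2, NDRG1 (-1.52 ± 0.266) and PFKP (-0.64 ± 0.123) on the lower. LDHA was not among them in IGR37, with a difference of 0.24 and a 95% interval of -0.12 to 0.59. With siCTR over DMSO 0 members were higher and 13 lower in IGR37, and 4 were higher and 5 lower in 501mel. The part of this control difference in the values here was not tested.

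Other genes around glycolysis were called in either direction. Of 27 further HIF targets measured, 8 rose and 5 fell with SCDi in IGR37, 9 and 3 with siSCD_1 in 501mel, 8 and 3 with siSCD_1 in IGR37, 3 and 7 with siSCD_2 in 501mel and 7 and 6 with siSCD_2 in IGR37, where 27 genes at the shares of all genes would hold 4.51 to 6.27 higher and 5.24 to 6.25 lower calls. The angiogenic factor VEGFA rose with SCDi in IGR37 (2.34 ± 0.128, adjusted p = 2.42e-13), and DDIT4, an inhibitor of mTORC1, rose with siSCD_1 in 501mel (2.24 ± 0.096, adjusted p = 1.12e-10) and in IGR37 (1.53 ± 0.096). The coactivator CITED1, also linked to pigment cells, rose with SCDi in IGR37 (2.31 ± 0.22) and with siSCD_1 in both lines (1.61 ± 0.115 and 1.52 ± 0.115). Of 11 genes of the HIF machinery, 7 rose and 2 fell with SCDi in IGR37, 5 and 0 with siSCD_1 in 501mel, 7 and 1 with siSCD_1 in IGR37, 4 and 2 with siSCD_2 in 501mel, and 6 and 1 with siSCD_2 in IGR37, beside 1.84 to 2.55 higher and 2.13 to 2.55 lower calls at the shares of all genes. HIF1A, the oxygen-regulated subunit, fell with siSCD_2 in 501mel (-0.60 ± 0.114, adjusted p = 0.000157). CITED2, which competes with HIF for a coactivator, rose with siSCD_1 in 501mel (2.55 ± 0.277) and in IGR37 (1.28 ± 0.277) and with siSCD_2 in IGR37 (1.23 ± 0.256). HIF1AN, a hydroxylase that blocks HIF activity, rose with siSCD_2 (0.59 ± 0.0882 in 501mel and 1.14 ± 0.0882 in IGR37) and fell with SCDi in IGR37 (-0.67 ± 0.0882).

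Of the 10 pentose phosphate genes, 4 rose and 3 fell with SCDi in IGR37, 3 and 5 with siSCD_1 in 501mel, 4 and 4 with siSCD_1 in IGR37, 1 and 6 with siSCD_2 in 501mel, and 1 and 7 with siSCD_2 in IGR37. The shares of all genes would give 10 genes 1.67 to 2.32 higher and 1.94 to 2.31 lower calls. PRPS1, which makes the ribose donor of nucleotides, fell by 1.00 ± 0.0997 with SCDi in IGR37, by 1.33 ± 0.132 with siSCD_1 in 501mel and by 1.09 ± 0.132 in IGR37. PGD and TALDO1, of the oxidative and non-oxidative arms, fell with siSCD_2 in 501mel (-1.25 ± 0.123 and -0.88 ± 0.0773). Of 15 genes of glycogen and hexose side branches, 5 rose and 5 fell with SCDi in IGR37, 6 and 4 with siSCD_1 in 501mel, 6 and 5 with siSCD_1 in IGR37, and 2 and 5 with siSCD_2 in each line, beside 2.5 to 3.48 higher and 2.91 to 3.47 lower at the shares of all genes. PGM3, of the hexosamine pathway, rose by 2.23 ± 0.149 with SCDi in IGR37, by 1.57 ± 0.175 with siSCD_1 in 501mel and by 1.79 ± 0.175 in IGR37, and the glycogen synthase GYS1 fell with siSCD_2 in both lines (-1.23 ± 0.104 and -1.60 ± 0.104). Of 16 genes around pyruvate entry to mitochondria, 4 rose and 4 fell with SCDi in IGR37, 3 and 6 with siSCD_1 in 501mel, 4 and 5 with siSCD_1 in IGR37, 2 and 4 with siSCD_2 in 501mel, and 5 and 3 with siSCD_2 in IGR37, close to the 2.67 to 3.71 higher and 3.1 to 3.7 lower at the shares of all genes. PCK2, the mitochondrial PEP carboxykinase, rose with SCDi in IGR37 (2.54 ± 0.212) and with siSCD_1 in both lines (1.48 ± 0.119 and 1.73 ± 0.119), and the malic enzyme ME2 fell with siSCD_2 in both (-1.24 ± 0.224 and -1.15 ± 0.224). Of 8 glucose sensing genes, 2 rose and 1 fell with SCDi in IGR37, 5 and 1 with siSCD_1 in 501mel, 2 and 1 with siSCD_1 in IGR37, 1 and 1 with siSCD_2 in 501mel, and 4 and 1 with siSCD_2 in IGR37, beside 1.34 to 1.86 higher and 1.55 to 1.85 lower at the shares of all genes. TXNIP, which limits glucose uptake, rose with SCDi in IGR37 (1.37 ± 0.13), with siSCD_1 in both lines (2.10 ± 0.118 and 1.53 ± 0.118) and with siSCD_2 in IGR37 (0.66 ± 0.13). With SCDi in 501mel 1 gene of these 6 lists was called, DDIT4 (0.93 ± 0.157, adjusted p = 0.00374).

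Over the 8 group means of the first table, which share 24 libraries and the same normalization, the genes most like LDHA were GEMIN5, PSMG2, C1QTNF9B-AS1, YARS2 and SEPHS1, with Pearson correlations of 0.979, 0.978, 0.978, 0.972 and 0.967. Among the members the correlation with LDHA was 0.896 for ENO1, 0.849 for P4HA1, 0.84 for TPI1, 0.797 for PGAM1 and 0.784 for ENO2, and it was -0.78 for KDM3A and close to 0 for LDHB. C1QTNF9B-AS1 was low, with group means of -2.26 to 1.05 log2 CPM, around the limit set by a count of 0. The correlations are descriptions over 8 points.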

How the data were processed

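RNA of 36 libraries from 501mel and IGR37 cells was sequenced as 3′ tags (QuantSeq Forward, per the labels' protocols). The authors deposited log2 CPM values in 2 tables normalized separately, one of 24 libraries and one of 12. The submitters' processing notes name STAR, edgeR and hg38, without versions for the tools. The values gave whole reads for 100% of entries at a tolerance of 0.001 reads, which gave the depths. Spike-in rows were left out (2.43 to 7.21% of reads in the table of 24 libraries, 3.76 to 5.71% in the other). In 501mel their share was 2.43 to 3.61% with SCDi (DMSO 3.57 to 4.37%), 5.13 to 5.71% with siSCD_1 (siCTR_1 3.76 to 4.29%) and 5.16 to 6.96% with siSCD_2 (siCTR 3.81 to 5.08%). In IGR37 it was 4.30 to 4.83% (3.76 to 4.59%), 4.58 to 5.50% (4.00 to 4.75%) and 5.05 to 7.21% (4.35 to 4.83%), in the same order. Changes relative to the spike-ins were not tested. All per-sample columns were used. Groups came from the sample labels, and each treated group was compared with the control in its own table.

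A linear model was fitted to the log2 values of all genes of a table with limma 3.58.1 in R 4.3.3 (all groups sharing 1 spread estimate, variance trend), with Benjamini-Hochberg adjustment over all genes of the table and a threshold of 0.05. The fit was tested on simulated data with planted changes, drawn with the same spread per gene in all groups. The wider spread of the IGR37 siSCD_2 libraries was therefore not covered. Alternatives were leaving out each library, a fit of the 2 compared groups alone, a fit with no variance trend, a pseudocount of 1, a filter on low values, quantile normalization, centring on the median, voom on recovered reads and a replicate block. Any member could be named; in full were those called with the largest changes, up to 6 in each direction per comparison, and up to 3 called genes per other list and comparison. The members and the other lists were chosen with earlier results of these data known. The column of the third IGR37 siSCD_2 library carries a number unlike its label and was used without a replicate number. Replicate pairs differed by more than sampling noise, with a chi-square per degree of freedom of 1.94 to 6.91, and of 10.0 to 28.6 in IGR37 siSCD_2. Gene models are from GENCODE 29 (hg38) and promoter windows from RefSeq (GRCh38.p14).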

Additional observations from a re-analysis of the deposited data

Results flagged for a closer look

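The values here are differences of effects between the lines, IGR37 minus 501mel, that passed limma's test of the difference itself at an adjusted p under 0.05. They are signed, so a lower effect can be a larger fall and a higher effect a smaller fall. For SCDi over DMSO the lower effects in IGR37 were PGAM1 (-1.94), PFKFB4 (-1.73), LDHA (-1.43), TPI1 (-0.84), SLC16A1 (-0.84), PKM (-0.70), BNIP3 (-0.65), PFKP (-0.63), GPI (-0.60), ENO1 (-0.55), PGK1 (-0.54), P4HA1 (-0.50) and LDHB (-0.46). The higher ones were KDM3A (0.43), HK2 (0.74) and NDRG1 (1.49).

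For siSCD_1 over siCTR_1 the lower effects in IGR37 were PGAM1 (-2.45), ALDOC (-2.18), BNIP3L (-0.55), PDK1 (-0.55) and P4HA1 (-0.55). The higher ones were LDHA (0.35), PKM (0.35), ALDOA (0.55), SLC2A1 (0.87), SLC2A3 (0.91), GAPDH (0.94), PFKFB3 (1.01), ANKRD37 (1.08) and ADM (1.96). The ALDOC value rests on 0 against 7 reads in IGR37. PGAM1 had 29, 6 and 29 reads in the IGR37 siSCD_1 libraries. ADM had 11, 9 and 7 reads with siSCD_1 and 11, 9 and 9 with siCTR_1 in IGR37.

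For siSCD_2 over siCTR every member that passed had the higher signed effect in IGR37. These were P4HA1 (0.41), BNIP3L (0.45), PKM (0.49), PFKFB3 (0.98), BNIP3 (0.99), ANKRD37 (1.01), HK2 (1.34), NDRG1 (1.51), SLC2A1 (1.94), ADM (2.30) and SLC2A3 (3.25). For P4HA1, PKM and BNIP3 the change was negative in both lines and smaller in size in IGR37. The difference of siCTR over DMSO between the lines was -3.91 for SLC2A3, from libraries that the siSCD_2 values share. Over all members 1 was higher and 11 were lower in that difference, and the part of the control siRNA was not tested.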

How the results depend on the processing

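Of 101 member calls in the 6 comparisons of a treated group with its control, 81 held in every fit without 1 library and under all 8 other settings; 15 ended without at least 1 library and 16 under at least 1 other setting. Over 1414 values, 1334 kept direction and call, 79 kept direction but no longer passed, and 1 changed sign, LDHB with siSCD_1 in 501mel, 0.157 after quantile normalization against -0.15; the cause was not tested. By setting, calls ended in 41 fits without 1 library, in 11 with only the groups compared, in 7 after quantile normalization, in 7 without the variance trend, in 5 with a replicate block, in 3 with centring, in 3 with voom, in 2 with a pseudocount of 1 and in 0 with the filter on low values.

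Without 1 library the number of members called ranged from 21 to 22 for SCDi in IGR37, 0 to 0 for SCDi in 501mel, 21 to 23 for siSCD_1 in 501mel, 11 to 15 for siSCD_1 in IGR37, 20 to 23 for siSCD_2 in 501mel and 18 to 22 for siSCD_2 in IGR37. For the line differences of effects it was 15 to 17 (SCDi), 12 to 17 (siSCD_1) and 9 to 14 (siSCD_2). The single line differences of members were not refitted without a library. No pairing by replicate number was seen, since 0 of 17 pairs correlated above 0.1 (-0.04 to 0.08). A low correlation cannot show that the samples were unpaired, and the labels do not state the design. In the block fit the unnumbered IGR37 siSCD_2 library had a level of its own and did not bear on the effects. With the replicate block 1 member was called for SCDi in 501mel, SLC2A3, against 0 without it. Over all genes that comparison called 39, with 8 from only the groups compared and 18 or 17 without SCDi replicate 2 or 3; the siSCD_2 line difference called 2819 and 1821. Centring moved the median of all genes by 0.11 in the siSCD_1 line difference, where 11 members were then higher and 4 lower. Depth limits ALDOC, PGAM1 and ADM in IGR37, and EGLN3, NDRG1, PFKFB4 and SLC16A3 in 501mel.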
